A study of Mus musculus with 8 samples.

Results

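Described here are 43 genes of the integrated stress response and of the unfolded protein response, chosen by name as known targets and regulators of these responses and measured in neurospheres grown from the adult mouse hippocampus. The list holds 24 genes of the integrated stress response and 19 of the unfolded protein response. All 24 of the first and 17 of the second had a usable array probe, so 41 members are described, among 13306 genes measured in all. Pdia3 and Dnajb11 had no matched probe and have no value.

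RNA was measured on 8 one-colour arrays, 2 for each of 4 groups, all from secondary neurospheres, balls of stem and progenitor cells that grow in suspension and form again when primary neurospheres are dissociated. Mice were 7 to 9 weeks old in every group, and the medium held B27 without retinyl acetate, bFGF, EGF and heparin, and for primary neurospheres also PDGFbb. WT and Sirt1 KO cells had a 129/ICR background and were harvested after 6 days, with replicate 1 from females and replicate 2 from males. DMSO and resveratrol cells were C57BL/6, wild type at Sirt1 and from males, grown for 5 days and then given the solvent DMSO or resveratrol for 24 hours, at a dose labelled as 10 with the unit "mm". SIRT1 removes acetyl groups from proteins at the cost of NAD, and the series title sets its loss (Sirt1 KO) beside its gain of function (resveratrol). The labels do not say whether the replicates of a group are separate cultures or pools of animals, so the p-values below measure only the spread between these arrays.

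In the integrated stress response, kinases that sense amino acid shortage, viral RNA, haem shortage or a stressed endoplasmic reticulum phosphorylate the initiation factor eIF2. General translation falls, while the mRNA of the transcription factor ATF4 is translated better, and ATF4 switches on genes of amino acid synthesis, amino acid uptake and tRNA charging, and through CHOP (Ddit3) and TRIB3 also genes of cell death and feedback. In the unfolded protein response, the sensors PERK, IRE1 and ATF6 in the endoplasmic reticulum membrane respond to misfolded protein, IRE1 splices the mRNA of XBP1, and XBP1 and ATF6 raise chaperones, folding enzymes and the machinery that removes misfolded proteins. ATF4 and XBP1 are controlled largely through translation and splicing, which these arrays do not read.

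Values are log2 signals after subtraction of the array's own 75th percentile, and a difference of 1 is a doubling. They rank arrays for a gene, not genes against each other. On the linear scale that percentile lay between 740 and 910 for replicate 1 and between 257 and 388 for replicate 2, so replicate number goes with signal strength. In WT and Sirt1 KO it is also the scan day, as WT 2 and Sirt1 KO 2 shared a slide scanned on another day than the other 6 arrays. All 12 neural stem and progenitor markers were above background on all 8 arrays, while 6 of the 7 microglia markers and 4 of the 6 endothelium markers with a probe were above background on none. Markers of other neural cells were also above background on all 8 arrays: all 4 of oligodendrocyte precursors, 4 of 6 of astrocytes, 4 of 6 of oligodendrocytes and 5 of 8 of neurons. The Sirt1 probe differed by -0.0046 (SE 0.24) between the arrays labelled Sirt1 KO and WT. The sources used here do not say whether this probe lies within the deletion, so it does not check the labels. The 41 probes that stand for the members were well above background on all 8 arrays, except that of Cebpb, which was not on Sirt1 KO 2.

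Both responses act on their targets through short DNA motifs, so the promoters of the members were searched for them. A window from 250 bases before to 50 after the start of each gene (RefSeq, GRCm38.p6) was available for 19 integrated stress and 17 unfolded protein response members and for 27025 genes in all. The endoplasmic reticulum stress element, ERSE, was searched on both strands as CCAAT, any 9 bases and CCACG. It was found in 8 of the 17 unfolded protein response members (47.1%), in 0 of the 19 integrated stress response members, and in 37 of all genes (0.137%). Its relative ERSE-II, searched as ATTGG, 1 base and CCACG, was found in Herpud1 and Dnajb11 (11.8%, against 0.0444% of all genes). The C/EBP-ATF response element, searched as TGATGNAAT, was found in 2 of the 19 integrated stress response members, Nupr1 and Aars (10.5%, against 1.08% of all genes). Only N was left free in this search, so forms of the element with another letter elsewhere, such as at its end, were not counted. ERSE and ERSE-II share their CCACG end, and a match is a description of these letters, not a measured binding site. The members were chosen as known targets and regulators of these responses, so these shares are no independent support for the list. The stretches below are printed 5′ to 3′ on the strand of the gene, with the motif in capitals, for the chaperone that defines the unfolded protein response, for a lectin chaperone (Canx), a co-chaperone (Creld2) and a degradation gene (Syvn1) with the same element, for the degradation gene Herpud1 with ERSE-II, and for both members with the C/EBP-ATF element.
Hspa5, ERSE, chr2:34771985-34772083, plus strand: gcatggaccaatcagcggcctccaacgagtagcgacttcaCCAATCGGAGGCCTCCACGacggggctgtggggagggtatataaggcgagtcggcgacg
Canx, ERSE, chr11:50325760-50325858, minus strand: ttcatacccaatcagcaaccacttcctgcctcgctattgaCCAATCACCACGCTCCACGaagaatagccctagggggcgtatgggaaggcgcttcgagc
Creld2, ERSE on the other strand, chr15:88819480-88819578, plus strand: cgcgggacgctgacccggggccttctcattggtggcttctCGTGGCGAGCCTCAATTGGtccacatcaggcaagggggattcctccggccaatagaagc
Syvn1, ERSE, chr19:6046492-6046590, plus strand: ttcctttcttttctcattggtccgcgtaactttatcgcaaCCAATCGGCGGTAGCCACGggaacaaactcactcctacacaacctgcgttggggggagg
Herpud1, ERSE-II, chr8:94386337-94386427, plus strand: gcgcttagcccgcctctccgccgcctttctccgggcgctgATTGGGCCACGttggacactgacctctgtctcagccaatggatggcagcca
Nupr1, C/EBP-ATF element on the other strand, chr7:126625533-126625621, minus strand: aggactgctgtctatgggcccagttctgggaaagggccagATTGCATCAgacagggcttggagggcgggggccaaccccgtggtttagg
Aars, C/EBP-ATF element on the other strand, chr8:111033689-111033777, plus strand: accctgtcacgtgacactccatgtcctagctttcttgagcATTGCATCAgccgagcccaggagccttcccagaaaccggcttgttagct

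**Figure D1:**
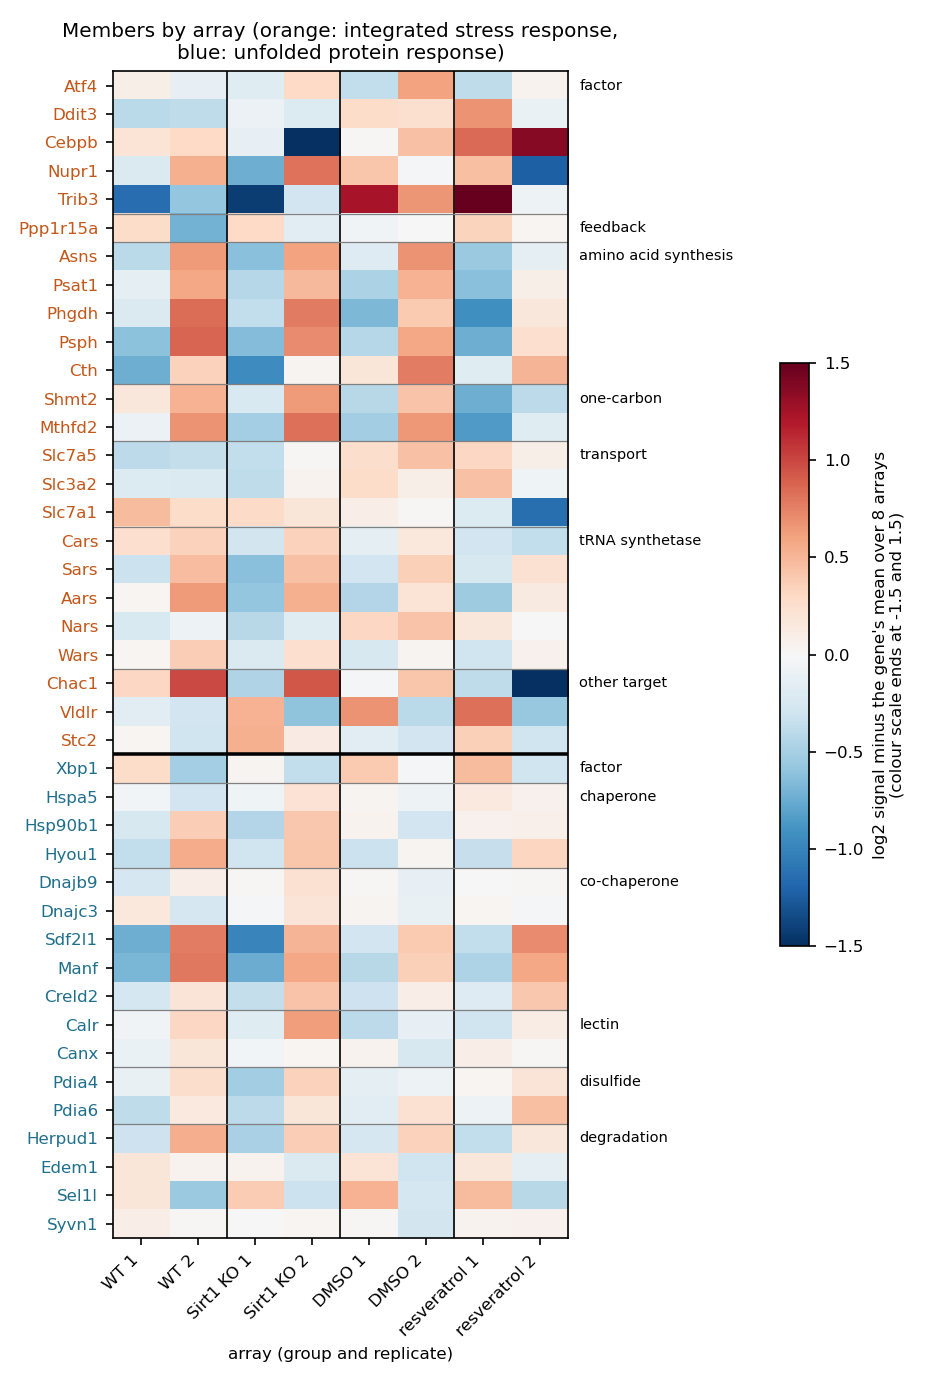
Each row is a member and each column an array; colour gives the log2 signal minus the mean of that gene over the 8 arrays, red above and blue below it, and members are ordered by response and role. The 5 amino acid synthesis members are higher on the replicate 2 array of every group, Trib3 is highest on the DMSO and resveratrol arrays, and Chac1 is lowest on resveratrol 2.

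Resveratrol was compared with DMSO to ask what 24 hours of the compound did to wild-type cells. ATF4 targets of amino acid synthesis and one-carbon metabolism read lower with resveratrol in both pairs, by 0.24 to 0.59 on the log2 scale. All 12 measured chaperones, co-chaperones, lectins and disulfide isomerases of the endoplasmic reticulum had a slightly higher mean on the probe that stands for the gene, by 0.044 to 0.22. Higher in both pairs were fewer, namely 2 of the 3 chaperones, 1 of the 5 co-chaperones, both lectins and both isomerases. Over the 24 integrated stress response members the median difference was -0.26, with 13 lower and 2 higher in both pairs. By pair it was -0.077 in pair 1 and -0.35 in pair 2. Over the 17 unfolded protein response members the median was 0.12, with 8 higher and 2 lower in both pairs, and by pair it was 0.014 and 0.22. Over all genes the median was 0.013, by pair -0.00081 and 0.036, with 36.7% higher and 32.2% lower in both pairs. The medians of both lists were thus farther from 0 in pair 2, the pair with the weaker signal. Thus 54.2% of the first list was lower and 47.1% of the second was higher.

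No member passed the test between resveratrol and DMSO. In the fit of the 4 group means with limma, 0% of all genes passed an adjusted p of 0.05, the smallest adjusted p was 1, and 201 genes but 0 of the 41 members had an unadjusted p under 0.05. In this fit, which has no term for replicate number, 35 of the 41 members differed by less than the standard error of the difference. Among them were all 17 unfolded protein response members. That standard error includes the shift between replicates, so these counts do not show that the differences are small. Replicate 1 of both groups lay on 1 slide and replicate 2 on another, so replicate number is the slide here. With it as a block, 57 genes passed (0.428%), again 0 of the 41 members. In that fit 1888 of the 13306 genes had an unadjusted p under 0.05, among them 8 of the 41 members. All 8 were among the 24 integrated stress response members, and 0 were among the 17 unfolded protein response members. The smallest adjusted p among members in that fit was 0.105 (Asns). Signs of the medians were the same under 5 other scalings, from -0.28 to -0.26 for the integrated stress and from 0.053 to 0.12 for the unfolded protein response members. Leaving out DMSO 2 moved the integrated stress response median to -0.012, with all genes at 0.12. The 4 oligodendrocyte precursor markers, all above background on all arrays, differed by a median of -0.997 in the same comparison, with summed linear signals of 26.3 to 57.7 in DMSO and 12.4 to 38.2 in resveratrol. Their part in the differences of the members was not tested, and in such bulk samples fewer cells of a type and less RNA per cell cannot be told apart.

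The comparison of Sirt1 KO with WT addresses the loss of SIRT1. The 24 integrated stress response members had a median difference of -0.13, with 12 lower and 4 higher in both pairs, which turned to 0.20, with 4 lower and 12 higher, under normexp background correction of the median signals. The 17 unfolded protein response members had a median of -0.037, with 4 lower and 2 higher in both pairs, and the sign turned under quantile normalization (0.016), in the deposited value table (0.021) and under both normexp settings (0.31 and 0.072). Over all genes the median was -0.042, with 34.2% lower and 22.3% higher in both pairs. In this comparison 40 of the 41 members differed by less than 0.5, and 39 by less than the standard error of the difference. With limma 0% of genes and 0 members passed; 158 genes and 0 members had an unadjusted p under 0.05, and the smallest adjusted p was 1. This fit has no term for replicate number, so its standard errors include the shift between replicates. In it the 95% interval stayed within a doubling or halving for 17 of the 41 members. The 4 oligodendrocyte precursor markers differed by a median of 0.37, from -0.55 to 1.65, with 2 higher and 1 lower in both pairs. The 6 astrocyte markers differed by a median of 0.55, from -0.14 to 2.57, with 4 higher and 0 lower. The part of these markers in the differences of the members was not tested.

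**Figure D2:**
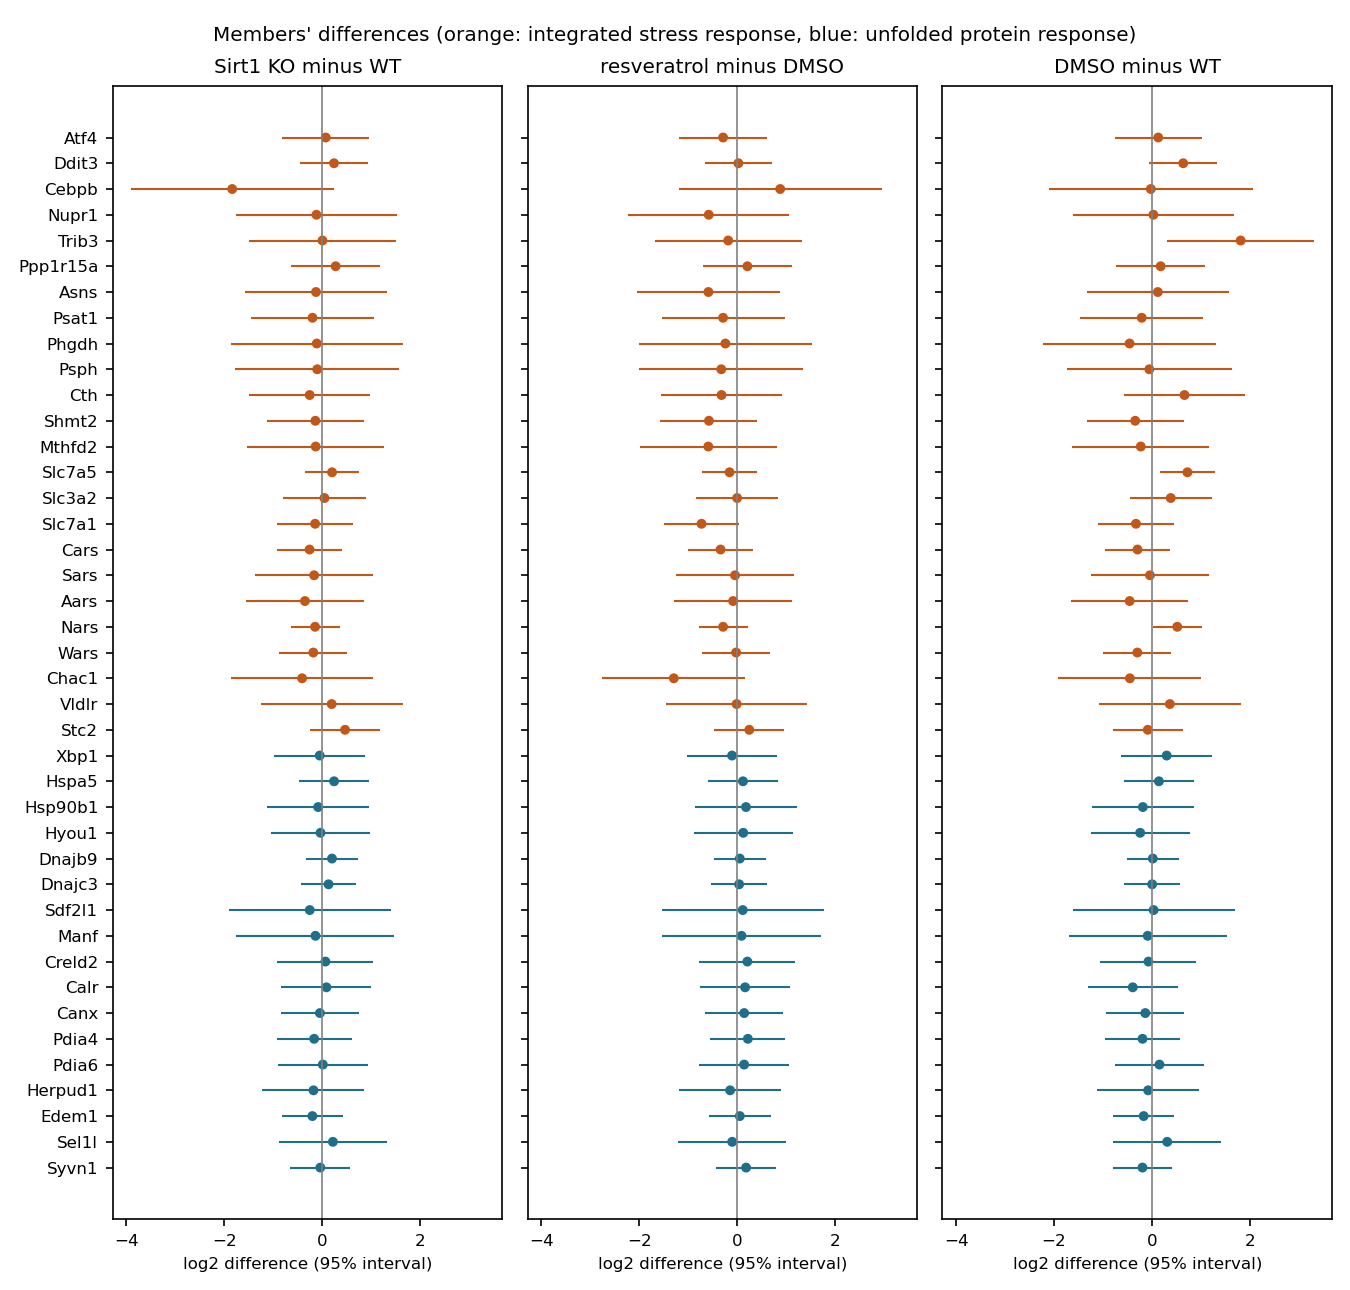
Points are log2 differences of group means and lines their 95% intervals from the fit of group means, 1 row per member, with the genotype arm on the left, the treatment arm in the middle and DMSO minus WT on the right. All intervals in the first 2 panels cross 0; in the third those of Trib3, Slc7a5 and Nars do not.

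**Figure D3:**
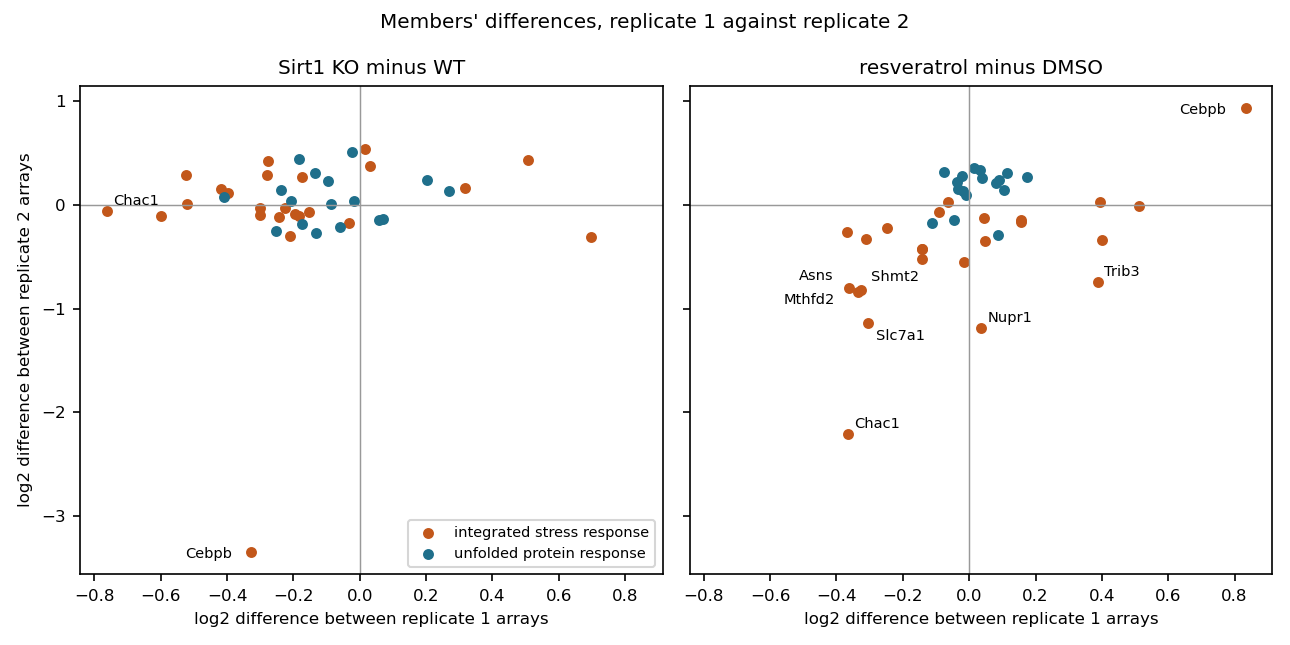
Each point is a member, placed by its log2 difference between the replicate 1 arrays (horizontal) and between the replicate 2 arrays (vertical); the left panel gives Sirt1 KO minus WT and the right panel resveratrol minus DMSO. In the right panel Asns, Shmt2, Mthfd2, Slc7a1 and Chac1 lie below 0 on both axes and farther from 0 in pair 2, while Cebpb lies above 0 on both.

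The 2 differences were also set against each other, as the treatment minus the genotype difference. Its median was -0.19 over the integrated stress and 0.15 over the unfolded protein response members, against 0.060 over all genes, and the first turned to 0.19 without Sirt1 KO 2 and the second to -0.27 under normexp on median signals. With limma the difference between them passed for 0% of genes and 0 members, 125 genes and 0 members had an unadjusted p under 0.05, and the smallest adjusted p was 1. Atf4 differed between the arms by -0.36 (SE 0.53), Ddit3 by -0.21 (SE 0.41), Hspa5 by -0.12 (SE 0.43) and Xbp1 by -0.052 (SE 0.55).

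The control groups of the arms, DMSO and WT, differ in strain, culture schedule, solvent, for replicate 1 in sex, and for replicate 2 in slide and scan day, and these cannot be told apart. Among the members that read higher in DMSO than in WT in both pairs were Trib3, Ddit3, the transporter Slc7a5 and the tRNA synthetase Nars, by 0.52 to 1.82 in the mean. Among those that read lower on the probe that stands for the gene were Phgdh (-0.45), the tRNA synthetase Aars (-0.45) and the lectin chaperone Calr (-0.39). All 3 Phgdh probes had this sign, but a dimmer Aars probe differed by 0.052 and a dimmer Calr probe by 0.26. Calr turned to 0.0058 under normexp on median signals. Of the 24 integrated stress response members 7 were higher and 9 lower in both pairs, and of the 17 unfolded protein response members 4 and 4. Over all genes 27.1% were higher and 33.7% lower. With limma 11 genes (0.0827%) passed and 0 members did, while 750 genes and 3 members (Trib3, Slc7a5 and Nars) had an unadjusted p under 0.05. With slide as a block 135 genes (1.01%) passed, among them 1 member, Trib3. With replicate number as a block 779 of the 13306 genes passed, among them 2 members, Phgdh and Slc7a5, but equal numbers share no animal between these groups. The oligodendrocyte precursor markers differed by a median of 1.45, with summed linear signals of 13.8 to 26.8 in WT against 26.3 to 57.7 in DMSO, and their part was not tested.

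Among the transcription factors and regulators, Atf4, the factor that drives the integrated stress response, read 1.60 and 1.40 in WT, 1.33 and 1.82 in Sirt1 KO, 1.15 and 2.12 in DMSO, and 1.13 and 1.57 in resveratrol. All groups overlapped. It differed by 0.073 (SE 0.38, adjusted p = 1) between Sirt1 KO and WT and by -0.28 (SE 0.38, adjusted p = 1) between resveratrol and DMSO. The first turned to -0.14 with slide as a block and to -0.17 without Sirt1 KO 2. The second value came from pair differences of -0.015 and -0.55, and without DMSO 2 it turned to 0.20.

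Ddit3 encodes CHOP, a factor of the late response that favours cell death. It read -0.88 and -0.85 in WT, -0.56 and -0.68 in Sirt1 KO, -0.20 and -0.24 in DMSO, and 0.20 and -0.58 in resveratrol. The WT, Sirt1 KO and DMSO arrays did not overlap with each other, while the resveratrol arrays lay on both sides of DMSO. It differed by 0.24 (SE 0.29, adjusted p = 1) between Sirt1 KO and WT, by 0.64 (SE 0.29, adjusted p = 0.966) between DMSO and WT, and by 0.030 (SE 0.29, adjusted p = 1) between resveratrol and DMSO, where the pairs were 0.40 and -0.34.

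Trib3, a pseudokinase that CHOP and ATF4 induce and that restrains ATF4, read -2.04 and -1.47 in WT, -2.32 and -1.18 in Sirt1 KO, 0.35 and -0.23 in DMSO, and 0.74 and -0.97 in resveratrol. All 4 arrays of the treatment arm were above all 4 of the genotype arm. The mean was 3.52-fold higher in DMSO than in WT (log2 difference 1.82, SE 0.63, 95% interval 0.31 to 3.32), by 2.38 in pair 1, which shared a slide, and by 1.25 in pair 2. This difference did not pass (adjusted p = 0.665), passed with slide as a block (2.50, adjusted p = 0.0442) and was 1.02 under normexp on median signals. A second, dimmer Trib3 probe differed by 1.001 in the same direction. Within the arms Trib3 differed by 0.0067 between Sirt1 KO and WT (-0.48 under normexp on median signals) and by -0.18 between resveratrol and DMSO, with pairs of opposite sign in each.

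Nupr1, a small stress-induced chromatin protein, read 1.38 and 2.13 in WT, 0.86 and 2.42 in Sirt1 KO, 2.01 and 1.57 in DMSO, and 2.05 and 0.37 in resveratrol. Resveratrol 2 was the lowest of the 8 arrays, and resveratrol 1 lay next to DMSO 1. Cebpb, a C/EBP factor that pairs with ATF4 and CHOP, read -3.24 and -3.14 in WT, -3.56 and -6.49 in Sirt1 KO, -3.42 and -3.002 in DMSO, and -2.58 and -2.07 in resveratrol. Both resveratrol arrays were above all other arrays, and Sirt1 KO 2, where the probe was not above background, was far below them. Cebpb was 1.85-fold higher in resveratrol than in DMSO (log2 difference 0.88, SE 0.87, 95% interval -1.19 to 2.96, adjusted p = 1), by 0.83 and 0.93 in the pairs. Between Sirt1 KO and WT it differed by -1.84 (SE 0.87, adjusted p = 1), from -0.33 in pair 1 and -3.35 in pair 2.

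The feedback subunit Ppp1r15a (GADD34), which directs a phosphatase to eIF2 and ends the response, read -1.44 and -2.42 in WT, -1.42 and -1.89 in Sirt1 KO, -1.77 and -1.73 in DMSO, and -1.38 and -1.69 in resveratrol. It differed by 0.28 (SE 0.38) between Sirt1 KO and WT, which turned to -0.32 under normexp on median signals, and by 0.21 (SE 0.38) between resveratrol and DMSO.

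The 5 amino acid synthesis members were all lower in resveratrol than in DMSO in both pairs, under all 6 scalings. Asns, which makes asparagine, read 5.64 and 6.50 in DMSO against 5.28 and 5.70 in resveratrol. It read 5.43 and 6.47 in WT and 5.20 and 6.44 in Sirt1 KO. Each resveratrol array was below the DMSO array of the same slide, although the groups overlapped. Asns differed by -0.58 (SE 0.61, adjusted p = 1; with the replicate block adjusted p = 0.105), by -0.36 and -0.80 in the pairs.

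Phgdh, Psat1 and Psph catalyse the successive steps of serine synthesis. Phgdh read 6.37 and 7.44 in DMSO against 6.12 and 7.22 in resveratrol, and 6.83 and 7.89 in WT against 6.68 and 7.83 in Sirt1 KO. Psat1 read 4.07 and 5.07 in DMSO, 3.93 and 4.64 in resveratrol, 4.42 and 5.13 in WT, and 4.12 and 5.03 in Sirt1 KO. Psph read 3.25 and 4.26 in DMSO, 2.94 and 3.93 in resveratrol, 3.06 and 4.55 in WT, and 3.03 and 4.38 in Sirt1 KO. The resveratrol minus DMSO differences were -0.24 for Phgdh, -0.28 for Psat1 and -0.32 for Psph. All 3 probes of Phgdh (-0.31 to -0.24) and both of Psph had this sign. Cth, which makes cysteine from cystathionine, read -1.53 and -0.94 in DMSO and -1.89 and -1.20 in resveratrol, a difference of -0.32, and -2.44 and -1.37 in WT against -2.65 and -1.67 in Sirt1 KO.

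In Sirt1 KO these 5 members also read lower than in WT in both pairs, but by less, -0.10 to -0.25. Only 3 of 5 were lower in both pairs under quantile normalization and in the deposited value table, 1 of 5 under normexp with 1 background per array, and with normexp-corrected median signals 4 of 5 were higher. For each of these members replicate 2 exceeded replicate 1 in all 4 groups, by 0.42 to 1.49. Between DMSO and WT, Phgdh differed by -0.45 (SE 0.74, adjusted p = 1), by -0.46 and -0.45 in the pairs, and by -0.11 in the fit blocked on slide (adjusted p = 0.965). Of these fits and the fit blocked on replicate number, Phgdh passed only in the last.

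Both mitochondrial one-carbon enzymes, which use the serine so made, were likewise lower with resveratrol in both pairs under all 6 scalings. Shmt2 read 2.87 and 3.71 in DMSO, 2.54 and 2.89 in resveratrol, 3.45 and 3.80 in WT, and 3.05 and 3.92 in Sirt1 KO. Mthfd2 read 1.12 and 2.29 in DMSO, 0.79 and 1.45 in resveratrol, 1.55 and 2.32 in WT, and 1.13 and 2.47 in Sirt1 KO. The groups overlapped because replicate 2 read higher throughout. The differences were -0.57 (SE 0.42) for Shmt2 and -0.59 (SE 0.59) for Mthfd2, larger in pair 2 (-0.82 and -0.84) than in pair 1 (-0.33 and -0.33). In Sirt1 KO minus WT both had pair differences of opposite sign.

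Of the 3 amino acid transporters, Slc7a1, which carries arginine and lysine, read 2.19 and 2.11 in DMSO against 1.88 and 0.96 in resveratrol, with no overlap, and 2.57 and 2.37 in WT against 2.37 and 2.28 in Sirt1 KO. It was lower with resveratrol by -0.72 (SE 0.32, 95% interval -1.495 to 0.048, adjusted p = 1; with the replicate block adjusted p = 0.151), by -0.31 in pair 1 and -1.14 in pair 2. A dimmer Slc7a1 probe differed by -0.34 between resveratrol and DMSO. Between Sirt1 KO and WT it differed by -0.90, against -0.14 on the probe that stands for the gene. Slc7a5, the large neutral amino acid carrier, read 1.34 and 1.39 in WT, 1.37 and 1.76 in Sirt1 KO, 2.01 and 2.18 in DMSO, and 2.05 and 1.83 in resveratrol. All arrays of the treatment arm were above all of the genotype arm. It was 1.66-fold higher in DMSO than in WT (log2 difference 0.73, SE 0.23, 95% interval 0.17 to 1.28, adjusted p = 0.576), by 0.66 and 0.79 in the pairs, and by 0.86 in the fit blocked on slide (adjusted p = 0.179). Of these fits and the fit blocked on replicate number, Slc7a5 passed only in the last. Its partner chain Slc3a2 read 5.04 and 5.03 in WT, 4.87 and 5.30 in Sirt1 KO, 5.52 and 5.33 in DMSO, and 5.68 and 5.18 in resveratrol.

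**Figure D4:**
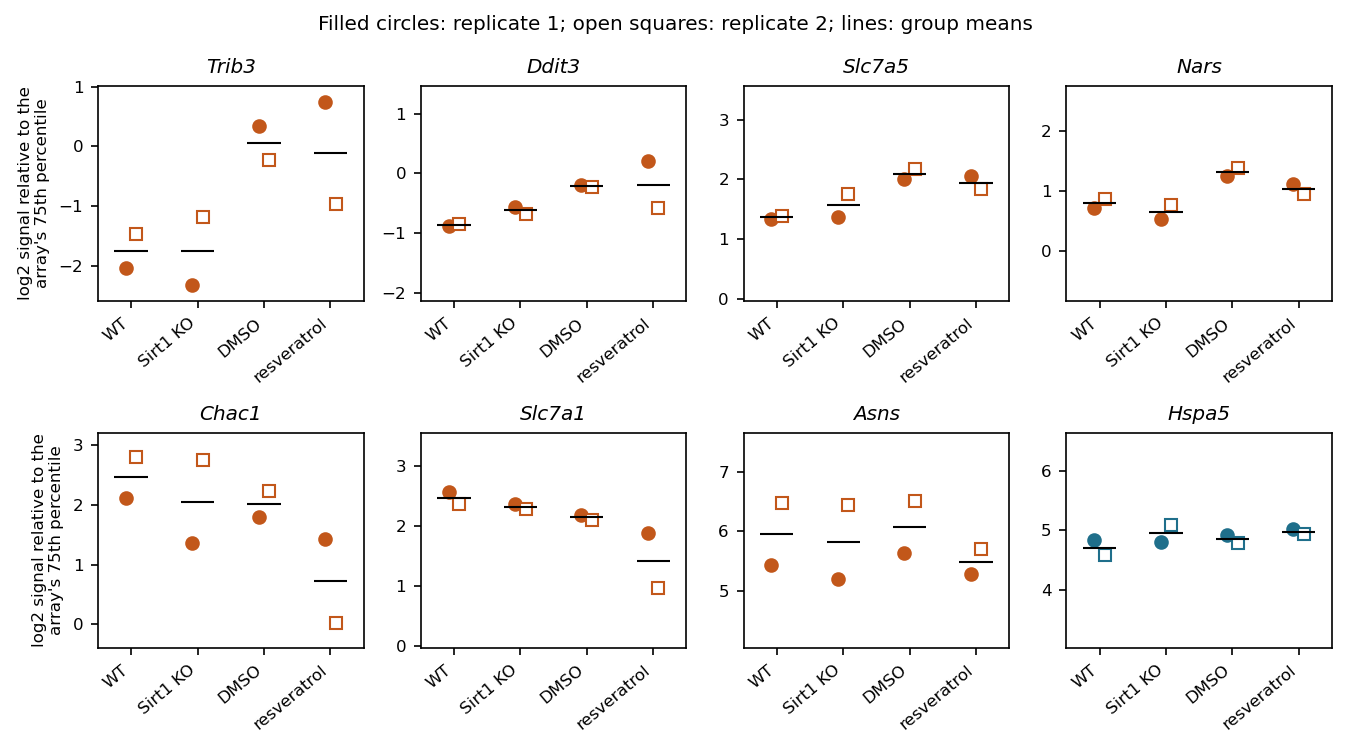
Log2 signal relative to the 75th percentile of the array for 8 members, 1 panel each, all with the same span; filled circles are replicate 1, open squares replicate 2 and lines the group means. Trib3 and Slc7a5 are higher on all DMSO and resveratrol arrays than on all WT and Sirt1 KO arrays, Slc7a1 and Chac1 are lowest on resveratrol 2, and Hspa5 lies between 4.58 and 5.09 on all arrays.

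Of the 5 tRNA synthetases, which load amino acids onto tRNAs, 3 were lower and 0 higher with resveratrol in both pairs, and 4 were lower and 0 higher in Sirt1 KO than in WT, which became 0 and 1 with normexp-corrected median signals. Cars read 2.42 and 2.73 in DMSO against 2.28 and 2.20 in resveratrol, and 2.82 and 2.91 in WT against 2.30 and 2.92 in Sirt1 KO. Nars read 0.72 and 0.87 in WT, 0.54 and 0.77 in Sirt1 KO, 1.26 and 1.38 in DMSO, and 1.12 and 0.95 in resveratrol. The DMSO arrays of Nars were above all others. Nars differed by 0.52 (SE 0.21, 95% interval 0.021 to 1.02, adjusted p = 0.833) between DMSO and WT and by -0.28 (SE 0.21, adjusted p = 1) between resveratrol and DMSO. Aars read 4.65 and 5.27 in WT against 4.05 and 5.16 in Sirt1 KO, a difference of -0.35 (SE 0.50) that turned to 0.062 under normexp on median signals. Sars and Wars differed by -0.16 and -0.18 between Sirt1 KO and WT and by -0.039 and -0.018 between resveratrol and DMSO. Other probes did not all have the same sign between Sirt1 KO and WT. A dimmer Wars probe differed by 0.38 and a dimmer Cars probe by 0.32, while another Cars probe (-0.24) and a dimmer Aars probe (-0.065) were below 0.

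Among the other targets, Chac1, an enzyme that degrades glutathione, read 2.12 and 2.80 in WT, 1.35 and 2.75 in Sirt1 KO, 1.79 and 2.23 in DMSO, and 1.43 and 0.016 in resveratrol. Resveratrol 2 was the lowest array by more than 1, and both resveratrol arrays were below both DMSO arrays. The difference was -1.29 (SE 0.61, 95% interval -2.75 to 0.17, adjusted p = 1; with the replicate block adjusted p = 0.192), from -0.37 in pair 1 and -2.22 in pair 2. Vldlr, a lipoprotein receptor, read 2.94 and 2.82 in WT, 3.63 and 2.51 in Sirt1 KO, 3.78 and 2.71 in DMSO, and 3.94 and 2.54 in resveratrol, so its replicates lay far apart in 3 of the 4 groups. Stc2, a secreted glycoprotein, read -0.45 and -0.78 in WT against 0.06 and -0.35 in Sirt1 KO, a difference of 0.47 (SE 0.30, adjusted p = 1) with no overlap, by 0.51 and 0.43 in the pairs.

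In the unfolded protein response, the factor Xbp1 read 0.39 and -0.40 in WT, 0.15 and -0.26 in Sirt1 KO, 0.50 and 0.10 in DMSO, and 0.59 and -0.19 in resveratrol. It differed by -0.049 (SE 0.39, adjusted p = 1) between Sirt1 KO and WT, by -0.10 (SE 0.39, adjusted p = 1) between resveratrol and DMSO and by 0.30 (SE 0.39, adjusted p = 1) between DMSO and WT. Replicate 1 was the higher array in every group.

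The chaperone Hspa5 (BiP), which binds unfolded chains and holds the stress sensors inactive, read 4.83 and 4.58 in WT, 4.81 and 5.09 in Sirt1 KO, 4.92 and 4.79 in DMSO, and 5.02 and 4.93 in resveratrol. It differed by 0.24 (SE 0.30, 95% interval -0.47 to 0.96, adjusted p = 1) between Sirt1 KO and WT. Between resveratrol and DMSO it differed by 0.12 (SE 0.30, 95% interval -0.59 to 0.84, adjusted p = 1), which turned to -0.041 under normexp on median signals and to -0.047 with 1 background per array. Neither of these intervals, which are from the values without normexp, reaches a doubling. Under normexp on median signals the difference of Hspa5 between Sirt1 KO and WT rose to 0.64, for which no interval is given here. Hsp90b1 (GRP94), a chaperone of secreted and membrane proteins, read 5.68 and 5.35 in DMSO against 5.69 and 5.70 in resveratrol, and 5.39 and 5.99 in WT against 5.18 and 6.04 in Sirt1 KO. Hyou1, an exchange factor and chaperone, read 1.71 and 2.07 in DMSO, 1.69 and 2.35 in resveratrol, 1.67 and 2.59 in WT, and 1.74 and 2.45 in Sirt1 KO.

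The 5 measured co-chaperones and associated proteins (Dnajb9, Dnajc3, Sdf2l1, Manf and Creld2) differed by 0.044 to 0.21 between resveratrol and DMSO, and by -0.25 to 0.20 between Sirt1 KO and WT. Dnajc3, which helps BiP in the lumen, read 2.15 and 1.99 in DMSO against 2.14 and 2.09 in resveratrol, a difference of 0.044 (SE 0.24) whose 95% interval of -0.52 to 0.61 does not reach a doubling. Sdf2l1 read 0.51 and 2.00 in WT, 0.26 and 1.75 in Sirt1 KO, 0.95 and 1.63 in DMSO, and 0.88 and 1.95 in resveratrol. Manf, a secreted neurotrophic factor that is kept in the reticulum, read 2.59 and 4.06 in WT, 2.53 and 3.85 in Sirt1 KO, 2.86 and 3.63 in DMSO, and 2.82 and 3.86 in resveratrol. For both, replicate 2 exceeded replicate 1 in all 4 groups.

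The lectin chaperones of glycoprotein folding and the disulfide isomerases read higher with resveratrol in both pairs for all 4 measured members, on the brightest probe of each and by small amounts: Calr by 0.17, Canx by 0.15, Pdia4 by 0.22 and Pdia6 by 0.15. A dimmer Pdia6 probe differed by -0.044 and another by 0.025, and 1 of the 4 Dnajc3 probes above differed by -0.078. Calr read 4.31 and 4.58 in DMSO, 4.40 and 4.82 in resveratrol, 4.65 and 5.02 in WT, and 4.52 and 5.33 in Sirt1 KO. Pdia4 read 0.98 and 1.05 in DMSO against 1.16 and 1.32 in resveratrol, with no overlap, and 1.02 and 1.39 in WT against 0.61 and 1.48 in Sirt1 KO. Under quantile normalization, in the deposited value table and under both normexp settings 1 of the 2 lectins was higher in both pairs, and both isomerases were in all of these.

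Of the 4 degradation genes, Herpud1, Edem1, Sel1l and Syvn1, which recognise misfolded proteins and pass them to ubiquitination, 1 was higher and 2 were lower with resveratrol in both pairs. Syvn1, the ubiquitin ligase, read 4.05 and 3.75 in DMSO against 4.08 and 4.09 in resveratrol, a difference of 0.19 (SE 0.26), against -0.12 on a dimmer probe that was above background on 6 of the 8 arrays. Herpud1 read 1.14 and 1.74 in DMSO against 1.03 and 1.57 in resveratrol, a difference of -0.14 (SE 0.44), and 1.09 and 1.95 in WT against 0.91 and 1.77 in Sirt1 KO. Sel1l, the adaptor of Syvn1, read 0.54 and -0.19 in WT, 0.75 and 0.05 in Sirt1 KO, 0.89 and 0.10 in DMSO, and 0.84 and -0.051 in resveratrol. A dimmer Sel1l probe differed with the opposite sign, by 0.19 between resveratrol and DMSO and by -0.012 between Sirt1 KO and WT. Edem1 differed by -0.20 (SE 0.26) between Sirt1 KO and WT.

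Split by the promoter motifs printed above, the 9 measured unfolded protein response members with an ERSE or ERSE-II differed by a median of 0.15 between resveratrol and DMSO, and 8 of 9 were above 0, Herpud1 being the exception. The 6 members with a promoter and neither motif had a median of 0.058, with 4 above 0. Between Sirt1 KO and WT the medians were 0.013 and -0.11. The difference between these sets was not tested.

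Across all genes measured, and not only among the members, the replicates of a group often differed from each other in the same direction in every group. Replicate 2 was above replicate 1 in all 4 groups for 10 of the 24 integrated stress and 8 of the 17 unfolded protein response members, against 44.9% of all genes, and below it for 3 and 3, against 21.1%. All 5 amino acid synthesis and both one-carbon members were among the first. Phgdh differed by 1.06, 1.15, 1.07 and 1.09 in WT, Sirt1 KO, DMSO and resveratrol, and Manf by 1.47, 1.32, 0.78 and 1.04. In contrast Sel1l and Xbp1 were lower on replicate 2 throughout, Sel1l by -0.70 to -0.89. Under quantile normalization the counts of members above replicate 1 in all 4 groups were 4 and 4, with 3 of the 5 amino acid synthesis members, and 4680 of all 13306 genes. Those below replicate 1 in all 4 groups were then 4 and 9 (3667 of all genes). In the deposited table of values, 3 and 4 members were above (3650 of all genes) and 8 and 11 below (4383 of all genes).

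**Figure D5:**
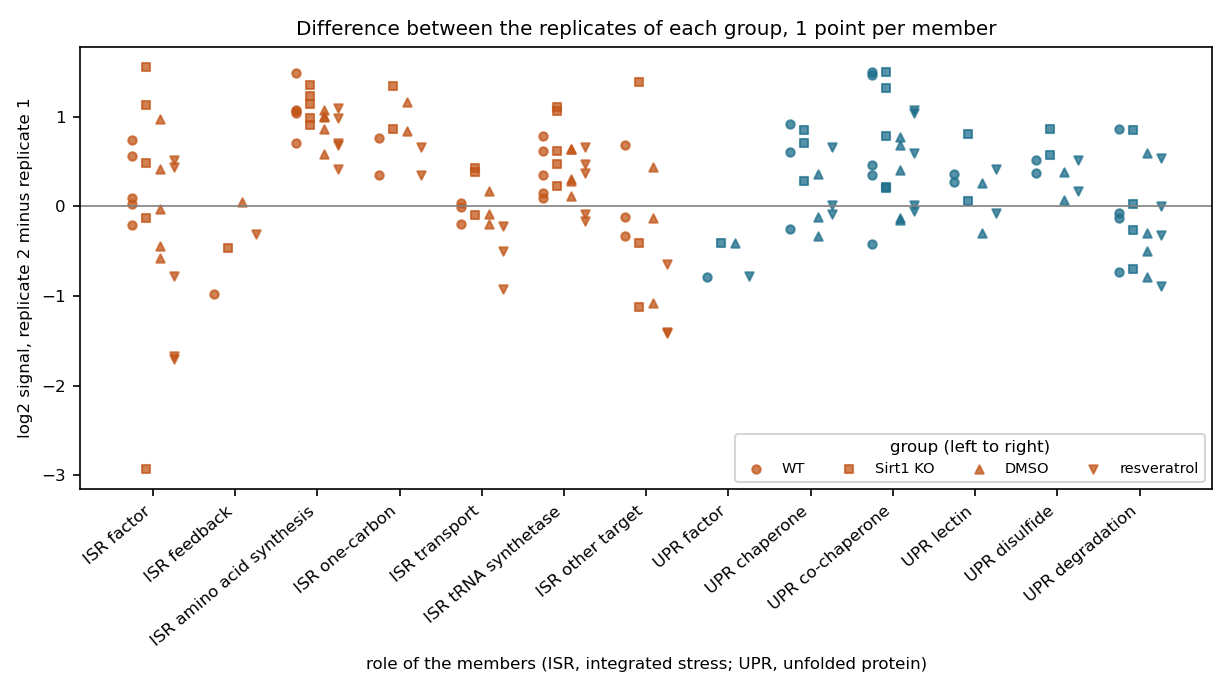
Each point is a member in 1 group, with the log2 signal of replicate 2 minus that of replicate 1 on the vertical axis and the roles of the members on the horizontal axis; symbols stand for the groups. All points of the amino acid synthesis and one-carbon members lie above 0 (amino acid synthesis 0.42 to 1.49), whereas those of the factors scatter from -2.93 to 1.56.

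Genes of the same pathways outside the 43, and cytosolic heat shock genes, were read in the treatment arm in the same way. Of 27 measured other ATF4 targets, 15 were lower and 9 higher with resveratrol in both pairs (median -0.17), and of 15 other tRNA synthetases 10 were lower and 2 higher (median -0.25). Of 43 other endoplasmic reticulum genes 26 were higher and 6 lower (60.5% higher, median 0.094). Some ATF4 and stress targets stood on the other side: Gdf15, a secreted stress cytokine, differed by 1.12 (SE 0.65), the autophagy receptor Sqstm1 by 0.999 (SE 0.50), the small heat shock protein Hspb1 by 0.96 (SE 0.29), the cell death gene Bbc3 by 0.93 (SE 0.71) and the heat shock protein Hspa1a by 0.85 (SE 1.11). With the replicate block Bbc3 passed (adjusted p = 0.0462), and the others of these 5 did not (adjusted p = 0.0693 to 0.236); without it none did (adjusted p = 1). The 14 sensors and activating genes of both responses, such as the kinases Eif2ak3 and Eif2ak4, had a median of 0.019, with 5 higher and 4 lower. The 15 cytosolic heat shock genes, which include Hspb1 and Hspa1a, had a median of 0.052, with 7 higher and 4 lower.

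In Sirt1 KO minus WT the other ATF4 targets had a median of 0.046, with 10 higher and 2 lower in both pairs. The other endoplasmic reticulum genes had a median of 0.087, with 20 higher and 11 lower, and the sensors -0.062, with 1 higher and 6 lower. For the 15 cytosolic heat shock genes, which include Hspa1a, the median was -0.066, with 2 higher and 7 lower. Cbs, which makes cystathionine for the step before Cth, differed by 0.95 (SE 0.22, adjusted p = 1), by 0.86 and 1.04 in the pairs, Gadd45a, a stress and growth arrest gene, by 0.88 (SE 0.54), and Hspa1a by 1.27 (SE 1.11). Cbs also differed by 1.74 (SE 0.22, adjusted p = 0.0699) between DMSO and WT. With slide as a block that difference was 1.66 (adjusted p = 0.038).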

How the data were processed

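Total RNA was labelled with a one-colour kit and hybridised to Agilent arrays, 1 per sample, per the labels. Scans were read with Feature Extraction 10.7, as the submitters' processing notes say (10.7.3.1 in the headers). Each deposited scanner file gives the intensity of every spot after the software's background correction. How the log2 values of the deposited value table were normalized is not given in the sources used here. Its columns correlated with the log2 scanner signals at 0.993 to 0.999 and had medians of 6.01 or 6.28. It served as an alternative.

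Here the 75th percentile over the non-control spots of an array was subtracted from its log2 processed intensity, flagged spots were left out, and replicate spots were averaged, giving 41174 probes. A probe was kept if some group had both arrays well above background (26282 probes), 102 flagged throughout on some array were dropped, and 14256 had no symbol through RefSeq accessions. Each gene was represented by its brightest kept probe on average; 18 members had several probes, whose differences had the same sign for 13 of 18 (resveratrol minus DMSO), 9 (Sirt1 KO minus WT) and 10 (DMSO minus WT). No coordinates come from the arrays, whose headers name another build than the promoter table.

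Group means over all 8 arrays were fitted with limma 3.58.1 in R 4.3.3 (intensity trend, two-sided, Benjamini-Hochberg over 13306 genes, adjusted p of 0.05). The fit was also run on simulated data whose noise was independent between arrays. The real arrays shared deviations by replicate number, as given below, so that run does not show how the fit performs here. Arrays lay on 3 slides, per the headers: WT 1, DMSO 1 and resveratrol 1 on the first, Sirt1 KO 1, DMSO 2 and resveratrol 2 on the next, and WT 2 and Sirt1 KO 2 on the last. Deviations from group means correlated between equal replicate numbers at 0.834 (DMSO with resveratrol, where the number is the slide), 0.736 (WT with Sirt1 KO, where it is sex and scan day), 0.643 (Sirt1 KO with resveratrol) and 0.596 (WT with DMSO). "Both pairs" means the same sign between replicate 1 arrays and between replicate 2 arrays. The number of arrays limits the precision. Alternatives were other scalings, filters and probe rules, the replicate or slide block, fewer arrays and leaving out each array.

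Members and gene lists were chosen with earlier results of these data known. Members are all given; Atf4, Ddit3, Hspa5, Xbp1, members past the adjusted p with or without the replicate block, and those at least 0.5 in both pairs (at most 10 per comparison, at most 5 other pathway genes) get full statistics.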

Additional observations from a re-analysis of the deposited data

Results flagged for a closer look

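The probes that stand for Cebpb and Sel1l read in opposite directions in the arms, in every pair, and neither gene passed any test. Cebpb was lower in Sirt1 KO than in WT and higher in resveratrol than in DMSO, and the difference between these differences was 2.72 (SE 1.23, 95% interval -0.22 to 5.66, limma adjusted p = 1), with pair values of 1.16 and 4.28. On Sirt1 KO 2 its probe was not well above background. For Sel1l it was -0.32 (SE 0.66, adjusted p = 1), with pair values of -0.25 and -0.39, but 0.20 on a dimmer Sel1l probe, so the pattern of Sel1l rests on 1 probe. With the replicate block the limma adjusted p was 0.269 for Cebpb and 0.499 for Sel1l. Groups of 2 arrays were too small for an outlier test.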

How the results depend on the processing

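All members stayed on the same side of the threshold under all alternatives, except those named here. The replicate block raised the genes called to 26 (Sirt1 KO minus WT), 57 (resveratrol minus DMSO), 36 (difference between the differences) and 779 (DMSO minus WT), where it called 2 members, Phgdh (-0.45, adjusted p = 0.0235) and Slc7a5 (0.73, adjusted p = 0.039). In Sirt1 KO minus WT the replicate block gave 1844 of the 13306 genes an unadjusted p under 0.05. Among them were 3 of the 41 members (Cebpb, Aars and Stc2). Its standard errors were smaller, for Phgdh 0.089 against 0.74. In DMSO minus WT equal numbers share no animal or, for replicate 2, slide. Slide as a block called 135 genes and 1 member, Trib3 (2.50, adjusted p = 0.0442), in DMSO minus WT, and turned Atf4 to -0.14 and Xbp1 to 0.23 in Sirt1 KO minus WT. It moved the median of all genes from -0.042 to -0.12 there. DMSO minus WT gave 22 genes under quantile normalization, 29 in the deposited table, 4 with probes above background on all 8 arrays, 6 with only the 4 arrays compared and 3 under normexp on median signals. The cause was not tested.

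Normexp on median signals gave medians of 0.20 (integrated stress) and 0.31 (unfolded protein) in Sirt1 KO minus WT, and 1 background per array gave 0.072 for the latter. The difference between the differences of the unfolded protein response members, 0.15, was 0.017 under quantile normalization, 0.013 in the deposited table, 0.037 when all probes of a gene were averaged, -0.27 under normexp and 0.044 with 1 background per array. Both normexp settings were chosen after seeing the data. They turned Hspa5 to -0.041 and -0.047 in resveratrol minus DMSO and Xbp1 to 0.0092 and 0.054 in the difference between the differences, and the first turned Ddit3 there to 0.032. Normexp on mean signals was planned and not run, since the raw signals used here are medians.

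Leaving out 1 array sets unequal replicate numbers against each other. In Sirt1 KO minus WT it gave 0 to 5 genes, medians of -0.56 to 0.26 (integrated stress) and -0.28 to 0.30 (unfolded protein), Atf4 from -0.17 to 0.32 and Xbp1 from -0.44 to 0.34. The extremes of the medians came without Sirt1 KO 2 and without Sirt1 KO 1. In resveratrol minus DMSO it gave an integrated stress response median of -0.38 to -0.012, Atf4 from -0.77 to 0.20, Ddit3 from -0.36 to 0.42 and Xbp1 from -0.49 to 0.29. In the difference between the differences it gave 0 to 3 genes, medians of -0.54 to 0.19 (integrated stress) and -0.19 to 0.42 (unfolded protein), Atf4 from -0.84 to 0.13, Ddit3 from -0.60 to 0.17, Hspa5 from -0.26 to 0.019 and Xbp1 from -0.44 to 0.34. In DMSO minus WT it gave 0 to 4 genes, Atf4 from -0.35 to 0.62, Xbp1 from -0.088 to 0.70 and Phgdh from -0.99 to 0.083.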
